A study of Ovis aries with 12 samples.

Results

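Sheep mitral valve anterior leaflets sampled at 8 weeks after an experimental myocardial infarction (MI) were compared with leaflets sampled at 4 weeks. The comparison takes 9 of the 12 libraries of the series, chosen by their labelled time point: 4 at 8 weeks and 5 at 4 weeks, with regurgitation pooled. All animals were adult Dorset sheep, and each library came from the anterior leaflet. At 4 weeks 3 animals had mitral regurgitation on echocardiography and 2 had none. At 8 weeks 2 had regurgitation and 2 had none. The other 3 libraries came from animals sampled before infarction (pre-MI), which had no regurgitation. In the test of 8 weeks against 4 weeks they entered only the filter on low counts, the scaling and the estimate of spread. Their levels are also described beside those of the post-MI libraries. Every post-MI animal had the same operation, permanent ligation of branches of the circumflex artery, so no post-MI group is free of infarction, and no sham-operated group was analysed here. The series text describes an equal division by regurgitation at each time, while 3 of the 5 animals at 4 weeks carry that label; grouping follows the labels. Libraries are named by the animal number in their titles, which restarts at each time point. Separate titles mark separate leaflets, and the p-values measure the spread between these.

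The mitral valve keeps blood from flowing back into the left atrium while the ventricle contracts. Its leaflets are sheets of collagen, elastic fibres and proteoglycans, lined by endothelium and maintained by interstitial cells, which behave like fibroblasts and can become contractile and matrix-producing when load changes. After a posterior infarction the papillary muscle and ventricular wall move outward and tether the leaflets, which are known to enlarge and stiffen. The comparison of 8 with 4 weeks asks how leaflet RNA differs between an earlier and a later stage of that process.

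The deposited table identifies genes by Ensembl sheep gene ID only and does not pair IDs with symbols, and none of the IDs matched the names table used here. The results are therefore given for IDs and for groups of genes defined by level or direction. The labelled tissue was not checked against marker genes for the same reason, and in bulk tissue fewer cells of a type and less RNA per cell cannot be told apart.

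The libraries held 7768007 to 16871302 counts at 4 weeks and 12673621 to 19175100 counts at 8 weeks. Between 16054 and 17296 genes had a count at 4 weeks, and 16324 to 17102 at 8 weeks. The gene with the highest total count took 3.07% to 10.2% of counts at 4 weeks and 1.66% to 4.51% at 8 weeks. In 4 library measures tested by a two-sided exact permutation test over every split of the 9 libraries, where the smallest p possible was 0.00794, 0 had a p under 0.05. The total differed by 3220823 counts (p = 0.135, adjusted p = 0.270) and the number of genes with a count by 329.5 (exact p = 0.317, adjusted p = 0.423). The share of the most abundant gene differed by -2.64 percentage points, 8 weeks minus 4 weeks (exact p = 0.111, adjusted p = 0.270). The share of each library's 10 most abundant genes differed by -2.89 points (exact p = 0.444, adjusted p = 0.444).

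The time points did not form separate groups of libraries. The 8-week leaflets split into pairs on the first principal component, and the 4-week leaflets were spread on the second. In principal components of log2 CPM (counts scaled to library size), computed with a prior count of 2 over 14427 genes, the first component held 37.1% of the variance. On it 8-week replicates 1 and 4 and pre-MI replicate 2 scored -121 to -79.4, and the other 9 libraries scored -9.90 to 55.6. Both pairs at 8 weeks hold 1 animal with and 1 without regurgitation. The Pearson correlation of log2 CPM, across genes that are not independent replicates, was 0.932 between 8-week replicates 1 and 4 and 0.961 between 8-week replicates 2 and 3. Across these pairs it was 0.809 to 0.859. Replicates 1 and 4 correlated at 0.913 and 0.930 with pre-MI replicate 2. With the 4-week libraries, replicates 1 and 4 correlated at 0.767 to 0.913 and replicates 2 and 3 at 0.890 to 0.953. Replicates 2 and 3 correlated at 0.949 to 0.959 with pre-MI replicates 3 and 4. The labels for time and regurgitation do not set 8-week replicates 1 and 4 and pre-MI replicate 2 apart. Many of the counts below are also given without these 3 libraries.

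**Figure D1:**
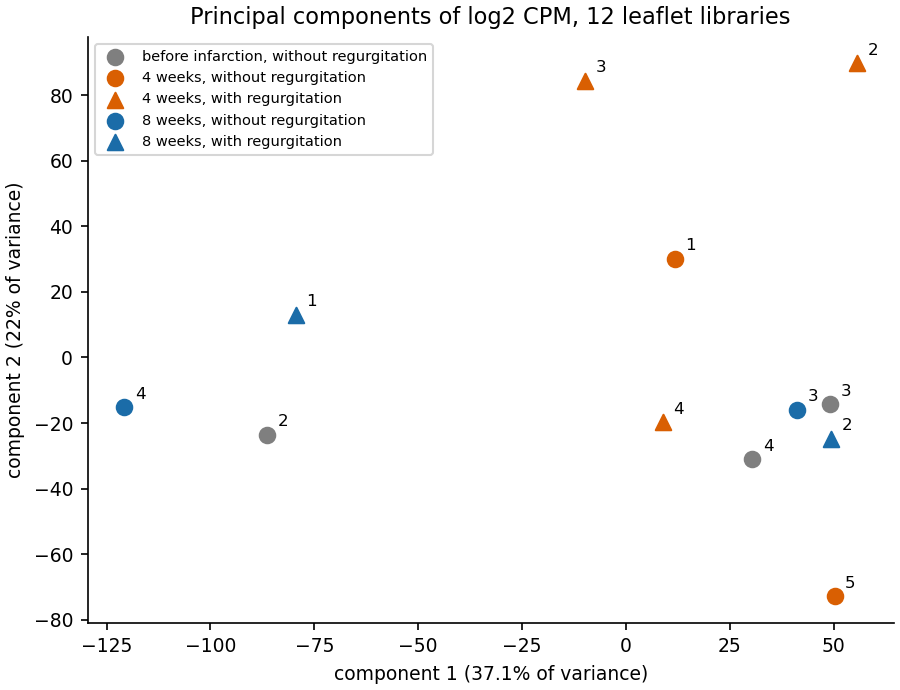
Scores of the 12 libraries on the first and second principal components of log2 CPM, colored by time point, with triangles for animals with regurgitation and replicate numbers beside the points. On component 1, 8-week replicates 1 and 4 and pre-MI replicate 2 lie between -121 and -79.4, apart from the other 9 libraries at -9.90 to 55.6.

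No gene passed the test of 8 weeks against 4 weeks. In edgeR's quasi-likelihood test on 3 time groups with Benjamini-Hochberg adjustment, 0 of 14427 genes (0%) had an adjusted p under 0.05 (minimum 0.556). The unadjusted p was under 0.05 for 1240 genes (8.59% of those tested, where 5% is 721.4). Of these 704 (4.88%) had the higher level at 8 weeks and 536 (3.72%) the lower level. The differences were unequal in size: the median log2 fold change was 1.60 among the 704 genes and -0.91 among the 536. A difference of more than 4-fold was estimated for 255 of the former and 43 of the latter. This inequality turned round without the 3 libraries that stood apart, where the medians were 1.08 and -1.21 among the genes at an unadjusted p under 0.05. Over all tested genes 49.98% had a log2 fold change above 0, so the scaling put the time points level overall.

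**Figure D2:**
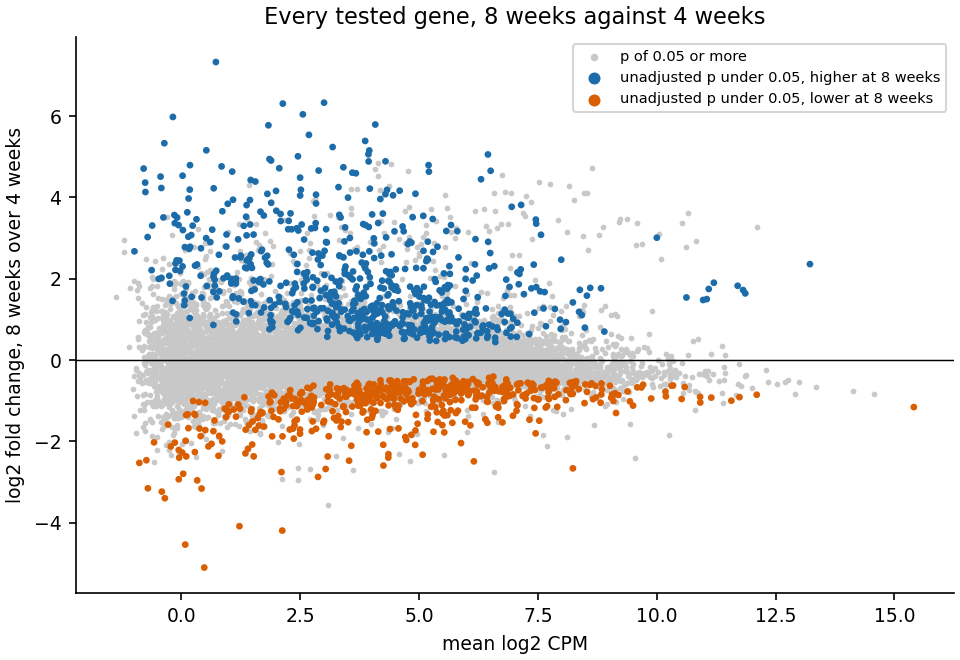
Each point is 1 of the 14427 genes tested, with its mean log2 CPM on the x axis and its log2 fold change of 8 weeks over 4 weeks on the y axis; colored points have an unadjusted p under 0.05 in edgeR, none of which passed adjustment. The 704 colored genes above the zero line reach larger log2 fold changes (up to 7.33) than the 536 below it (down to -5.10).

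Most of the genes with the higher level at 8 weeks in this unadjusted count were highest in 8-week replicates 1 and 4. Among the 704 genes with the higher level at 8 weeks, these libraries were the pair with the highest CPM of all 9 post-MI libraries in 512 genes (72.7%), against 12.04% of all tested genes. The other pair, 8-week replicates 2 and 3, held that place in 40 of the 704 genes (5.68%). Among the 536 genes with the lower level, replicates 1 and 4 were the lowest pair in 160 (29.9%), against 5.88% of all tested genes. The same libraries chose the 704 and the 536 genes, and all tested genes include those of the opposite direction. Part of each excess over all tested genes therefore follows from the choice. Without these libraries and pre-MI replicate 2, 0 of 14435 genes passed adjustment. The unadjusted p was under 0.05 for 768 (383 with the higher level and 385 with the lower), where 5% is 721.8. Of those 768 genes 235 were also among the 1240, which is 30.6% of the smaller list and 19.0% of the larger. Leaving out 8-week replicate 4 alone lowered the count of 1240 to 503, and leaving out 8-week replicate 1 alone gave 1033. The count was 750 without 4-week replicate 2 and 1808 without 4-week replicate 5.

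**Figure D3:**
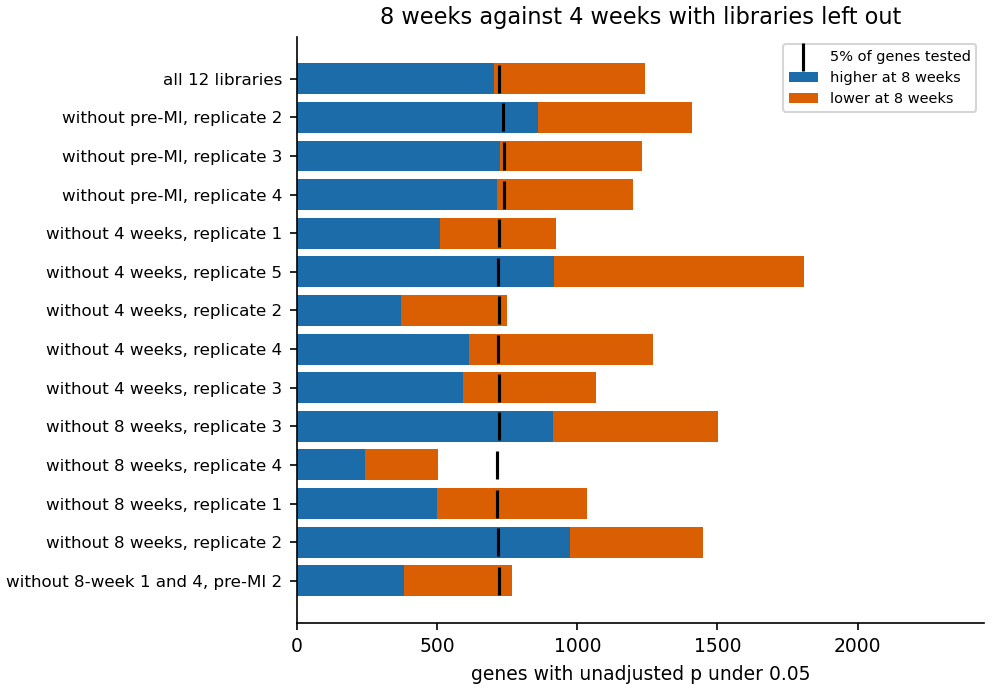
Bars give the number of genes with an unadjusted p under 0.05 for 8 weeks against 4 weeks, split by direction, in the fit of 12 libraries and in fits that leave libraries out; black marks show 5% of the genes tested. The count is 1240 with every library and 503 without 8-week replicate 4, which is below its mark.

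The 95% interval of the log2 fold change stayed within 2-fold in either direction for 5488 genes (38.0%) and within 4-fold for 11730 genes (81.3%), and the median distance from the estimate to either bound was 0.82 on the log2 scale. Among 3609 genes with a mean of at least 50 CPM, 1899 (52.6%) were bounded within 2-fold, against 170 of 3347 (5.08%) among genes below 5 CPM. For the remaining genes below 5 CPM the interval reached a 2-fold difference or more in at least 1 direction. The interval stayed within 2-fold, with the 3 libraries that stood apart left out, for 3507 genes (24.3%) and within 4-fold for 10972 (76.0%).

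Estimated differences were larger among the most abundant genes than over all genes, but not without the 3 libraries that stood apart. The 100 genes with the highest mean CPM over the post-MI libraries carried 26.7% to 43.6% of a library's counts, and their median size of log2 fold change was 0.58, against 0.31 over all tested genes. An unadjusted p under 0.05 was found for 22 of the 100 (9 higher and 13 lower at 8 weeks), against 8.59% of all genes, and 0 passed adjustment. Of the 19 with an estimated difference over 2-fold, 14 were higher and 5 lower, against 11.5% of all genes past that size. The interval stayed within 2-fold for 18 of the 100, a smaller share than the 38.0% over all genes. The time points did not overlap for 1 of the 100, against 2.04% of all genes. Without the 3 libraries that stood apart, 9 of the 100 differed by over 2-fold, against 10.7% of all genes in that fit. An unadjusted p under 0.05 was found for 2 of the 100, against 5.32% of all genes, and neither was among the 22. The same post-MI libraries chose the 100 genes and gave these differences. A gene raised in the 8-week libraries that stood apart could therefore enter the 100 through that rise. The larger differences, and their loss when those libraries were left out, can follow in part from this choice. The most abundant gene differed by a log2 fold change of -1.15 (edgeR adjusted p = 0.564).

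The time points were fully separated for few genes. All 4 libraries at 8 weeks lay above all 5 at 4 weeks for 129 genes (0.894% of those tested) and below them for 165 genes (1.14%), 294 in all (2.04%). Of these, 216 also had an unadjusted p under 0.05. With time labels exchanged at random, a gene without ties would separate in a given direction with probability 0.00794. That value is also the smallest p of the permutation test above. The shares of 0.894% and 1.14% are close to it. Genes are not independent, and an excess over this reference was not tested. The differences were mostly modest: the median log2 fold change was 1.00 for the 129 genes and -0.78 for the 165, and 117 of the 294 differed by more than 2-fold. Without the 3 libraries that stood apart, which leaves 2 libraries at 8 weeks and so makes separation easier, 1588 genes did not overlap. The reference by exchange of labels is larger there and was not computed, so the rise to 1588 is not read as a time difference. The pre-MI mean, from libraries whose levels did not define the separation, lay nearer to the 8-week mean than to the 4-week mean in 212 of the 294 (72.1%). The share was 60.3% over all tested genes. It was 69.8% for the genes above and 73.9% for the genes below, and these distances use the same post-MI libraries that chose the genes. The pre-MI mean holds pre-MI replicate 2 and the 8-week mean holds replicates 1 and 4, the libraries that stood apart together. These shares were not computed without them, so a return toward pre-MI levels was not tested.

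Detection at a single time point was rare. Of 25197 gene IDs, only 9 had a count in each 8-week library and none at 4 weeks, and 2 had the reverse pattern. With only 8-week replicates 2 and 3 kept, these numbers were 69 and 13, where fewer libraries make both patterns easier to meet. The highest count among the 9 was 48, in 8-week replicate 1 or 4, while 8-week replicates 2 and 3 had at most 4 counts of any of them. A count of 0 in the 4-week libraries allows up to 0.151 to 0.336 CPM at 3 counts, for counting error only.

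The genes with the smallest p in each direction are described as values, since none passed adjustment in edgeR; their values in DESeq2, which passed them, are given last. ENSOARG00000014123 had 29.9, 64.9, 31.3 and 24.6 CPM in 8-week replicates 3, 4, 1 and 2. Its levels at 4 weeks were 14.2, 7.48, 10.7, 8.40 and 13.6 CPM in replicates 1, 5, 2, 4 and 3. The time points did not overlap, and the highest 4-week level was under the lowest 8-week level. The means were 37.7 ± 18.4 CPM (SD, n = 4) and 10.9 ± 3.01 CPM (SD, n = 5), and the fitted log2 difference was 1.79 with a standard error of 0.37 (edgeR adjusted p = 0.556). Pre-MI libraries had 28.8, 9.74 and 19.0 CPM and so reached from the 4-week range into the 8-week range. Without the 3 libraries that stood apart the log2 fold change was 1.42 (edgeR adjusted p = 0.830).

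ENSOARG00000006946 was the second gene with the higher level at 8 weeks. It had 147 and 165 CPM in 8-week replicates 3 and 4, without regurgitation, and 90.8 and 66.6 CPM in replicates 1 and 2, with it. At 4 weeks it had 48.4, 45.4, 33.7, 49.9 and 23.4 CPM in replicates 1, 5, 2, 4 and 3. The time points again did not overlap, and here the highest 8-week libraries came one from each pair of the first component. The means were 117 ± 46.4 CPM (SD, n = 4) and 40.2 ± 11.3 CPM (SD, n = 5), and the fitted log2 difference was 1.55 with a standard error of 0.35 (edgeR adjusted p = 0.556). It was 1.48 without the 3 libraries that stood apart (edgeR adjusted p = 0.830). Pre-MI libraries had 104, 84.7 and 41.7 CPM.

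ENSOARG00000018118 had the smallest p among genes with the lower level at 8 weeks. It had 8.29, 5.90, 7.26 and 9.77 CPM in 8-week replicates 3, 4, 1 and 2. At 4 weeks it had 28.4 and 30.0 CPM in replicates 1 and 5, without regurgitation, and 16.7, 18.6 and 14.5 CPM in replicates 2, 4 and 3, with it. No libraries of the time points overlapped, and the 4-week libraries without regurgitation were the highest. The means were 7.80 ± 1.64 CPM (SD, n = 4) and 21.6 ± 7.08 CPM (SD, n = 5), and the fitted log2 difference was -1.47 with a standard error of 0.31 (edgeR adjusted p = 0.556). Pre-MI libraries had 10.1, 11.6 and 18.0 CPM, all above the 8-week levels, with the highest inside the 4-week range. The log2 fold change was -1.18 without the 3 libraries that stood apart (edgeR adjusted p = 0.830).

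ENSOARG00000016543 was close to the detection floor outside the 4-week group. It had 123, 3, 27, 109 and 38 counts in 4-week replicates 1, 5, 2, 4 and 3, which is 13.8, 0.335, 2.52, 5.48 and 3.44 CPM. At 8 weeks it had 5, 2, 2 and 11 counts in replicates 3, 4, 1 and 2, or 0.288, 0.169, 0.158 and 0.517 CPM. Pre-MI libraries had 0, 3 and 1 counts. The 4-week replicate 5 fell within the 8-week range, so the groups overlapped, while the other 4-week libraries lay well above it. The fitted log2 difference was -4.08 with a standard error of 0.93 (edgeR adjusted p = 0.556), and with counts this low its size depends on the fit. Without the 3 libraries that stood apart it was -3.54 (edgeR adjusted p = 0.830).

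**Figure D4:**
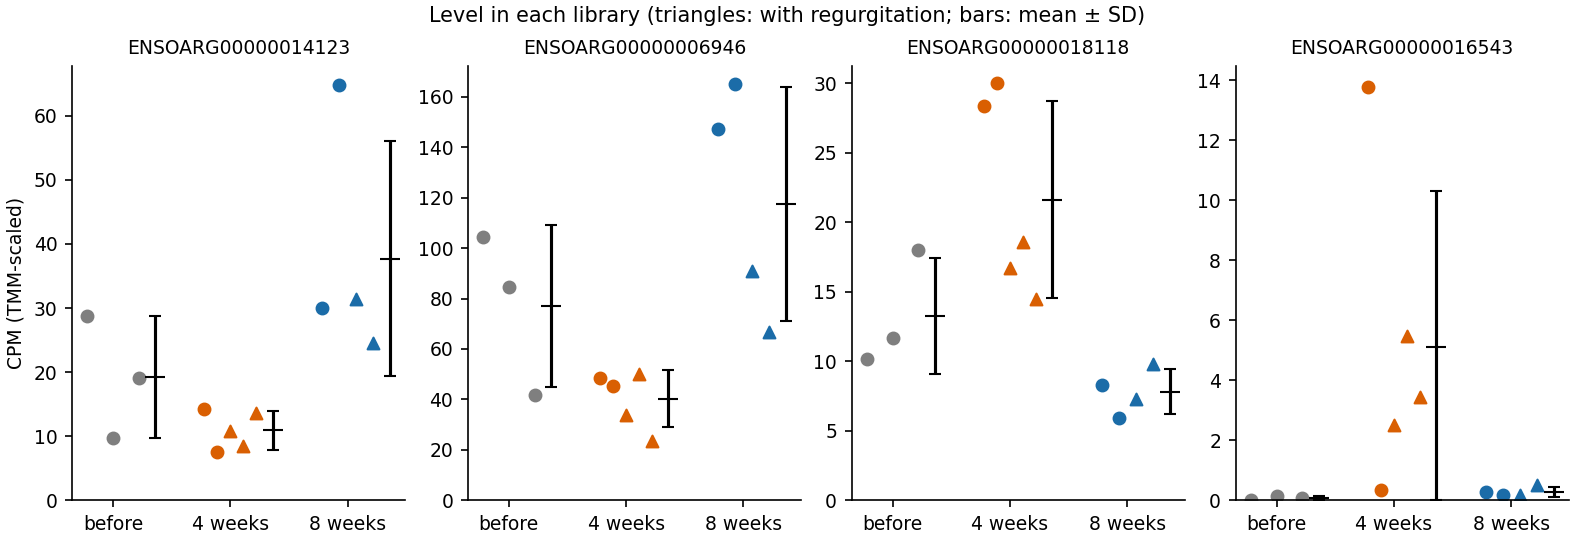
CPM of the 4 genes in each of the 12 libraries, by time point; triangles are animals with regurgitation and black bars give the mean and SD, with the lower bar stopped at 0. ENSOARG00000014123, ENSOARG00000006946 and ENSOARG00000018118 show no overlap between 4 and 8 weeks, and ENSOARG00000016543 has 1 library at 4 weeks, at 0.335 CPM, within the 8-week range.

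The time difference was then taken separately in animals with and without regurgitation, which are different animals and so share no library. In a fit of 5 groups by edgeR, 0 genes (0%) passed adjustment in either set. With regurgitation (2 libraries against 3) the minimum adjusted p was 0.310. The unadjusted p was under 0.05 for 425 genes (2.95%), of which 266 had the higher and 159 the lower level at 8 weeks. Without regurgitation (2 against 2) the minimum adjusted p was 0.785. Here 803 genes (5.57%) were under 0.05 unadjusted, with 300 at the higher and 503 at the lower level. The count with regurgitation was 2206 without 4-week replicate 4, 107 without 4-week replicate 2, 228 without 4-week replicate 3 and 191 without 8-week replicate 1. The count without regurgitation was 1541 when 8-week replicate 3 was left out. Of the unadjusted genes 46 were in both sets (10.8% of the first and 5.73% of the second), and 35 of the 46 had the same direction, 24 higher and 11 lower. The counts without the 3 libraries that stood apart were 300 with and 661 without regurgitation, with 41 in both, 33 of them in the same direction. The 4 genes named above had the same direction in both sets of animals. Their log2 fold changes with and without regurgitation were 1.36 and 2.13 for ENSOARG00000014123 and 1.14 and 1.73 for ENSOARG00000006946. They were -0.96 and -2.04 for ENSOARG00000018118, and -3.42 and -4.87 for ENSOARG00000016543. For these genes the difference between the sets, tested as an interaction in edgeR, had an adjusted p of 0.955. Since the same 9 libraries chose the genes, the shared direction is a description.

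Over 14427 genes the log2 fold changes of the 2 sets correlated at r = 0.388, and 53.4% of genes had the same sign. Each set holds 1 of the 8-week libraries that stood apart. Without these and pre-MI replicate 2 the correlation was 0.141, and 53.9% of 14435 genes had the same sign. A group of 232 genes was estimated more than 4-fold higher at 8 weeks in both sets. That is 70.9% of the 327 genes more than 4-fold higher with regurgitation and 33.3% of the 696 without it. Only 11 genes were estimated more than 4-fold lower in both. The 232 genes took 8.91% of counts in 8-week replicate 4 and 5.08% in replicate 1, but 0.113% and 0.110% in replicates 3 and 2. At 4 weeks they took 0.0433% to 0.857%. Replicates 1 and 4 were the highest pair of post-MI libraries in 227 of the 232.

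The 232 genes were chosen by their post-MI fold changes, among genes kept by a filter that counts all 12 libraries. The 232 genes took 5.45% of counts in pre-MI replicate 2 and 0.0919% and 0.120% in replicates 3 and 4. Pre-MI replicate 2 was the highest pre-MI library for 227 of the 232 genes (97.8%), against 44.8% of all tested genes. The filter fixes part of this share: 196 of the 232 passed it without pre-MI replicate 2 being counted. That library was the highest pre-MI library for 191 of these 196 (97.4%), against 44.4% of all genes that passed in the same way. Over all 4 libraries at 8 weeks their median log2 fold change was 3.54, a value set by the choice of the genes. The time points did not overlap for 10 of the 232 (4.31%, against 2.04% of all tested genes). Without the 3 libraries that stood apart, 171 of the genes were tested, their median log2 fold change was -1.27 and 128 had a log2 fold change below 0. The filter on low counts was run anew for that fit, so genes could be kept through their 4-week levels. Median CPM of the 232 genes was 0.806 and 0.470 in 8-week replicates 3 and 2, and 0.280 to 2.67 at 4 weeks. The negative median can follow in part from this filter. A share of 5.08% or more occurred in 1 of 3 libraries before infarction, in 0 of 5 at 4 weeks and in 2 of 4 at 8 weeks. Of the 3 libraries with such a share, 1 came from an animal with regurgitation, and 5.08% is the lowest share among them. The genes were chosen as higher at 8 than at 4 weeks in both sets, so the difference between these times is set by the choice. The source of these transcripts was not tested.

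**Figure D5:**
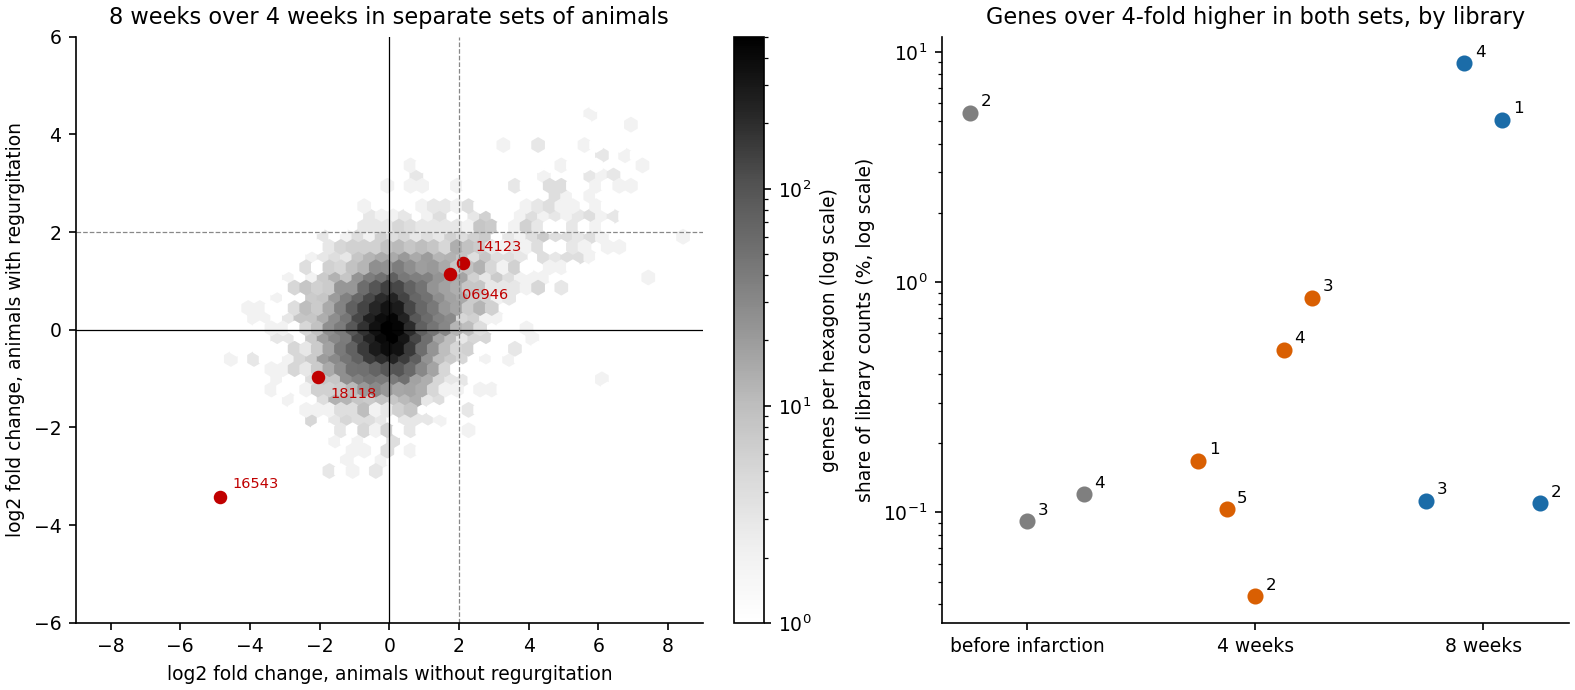
Left, log2 fold change of 8 weeks over 4 weeks per gene in animals without (x axis) and with (y axis) regurgitation, shaded by the number of genes, with dashed lines at 4-fold and the 4 named genes in red by the end of their ID. Right, share of each library's counts (log axis) in the 232 genes beyond both dashed lines, which is 5.08% to 8.91% in 8-week replicates 1 and 4 and pre-MI replicate 2 and 0.0433% to 0.857% in the other 9 libraries.

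DESeq2, applied to the same libraries and groups, passed 20 genes at an adjusted p under 0.05 (0.139% of those tested), 12 higher and 8 lower at 8 weeks. Their log2 fold changes ranged in size from 0.80 to 5.43, and 13 were over 4-fold. All 20 had an unadjusted p under 0.05 in edgeR, the largest being 0.0044. For 13 of the 20 the time points did not overlap, against 2.04% of all tested genes. Non-overlap was found for 216 of the 1240 genes at an unadjusted p under 0.05 in edgeR. The same libraries chose both lists, so frequent non-overlap follows in part from the choice. DESeq2 passed 17 genes when the 3 libraries that stood apart were left out, of which 2 were among the 20. The 4 named genes were among the 20, with DESeq2 adjusted p of 0.0151 for ENSOARG00000014123, 0.0371 for ENSOARG00000006946, 0.0216 for ENSOARG00000018118 and 0.0151 for ENSOARG00000016543. Over the other alternatives their adjusted p ran from 0.376 to 0.984.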

How the data were processed

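The authors deposited raw integer counts for Ensembl sheep gene IDs, with each library as a column that was matched to its sample by title. The submitters' processing notes name Bowtie2 2.2.3, TopHat2 2.0.12 and HTSeq 0.6.1. The genome build, annotation release and strand setting are not given in the sources used here, so counts of similar, overlapping or antisense genes are uncertain. Libraries were prepared from poly-A RNA with a NEBNext Ultra kit, per the labels' protocols.

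Of 25197 gene IDs, 4854 had no count, and filterByExpr on the 3 time groups kept 14427, holding 99.94% of counts. Counts were scaled by TMM (factors 0.719 to 1.19) and tested in edgeR 4.0.16 under R 4.3.3 with a robust quasi-likelihood fit to 12 libraries (9 residual degrees of freedom, biological coefficient of variation 0.524). A standard error is the size of the log2 fold change divided by the square root of F. The least different libraries had a chi-square of 37.6 per degree of freedom, so no libraries were merged. Alternatives used DESeq2 1.42.0, limma 3.58.1 and sva 3.50.0. The fit was also run on simulated counts, and what it detected there is not given here. Figures used matplotlib 3.10.9.

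The comparison, lists and rules were chosen with earlier results of these data known. The rule for named genes took the 2 IDs with the smallest p in each direction, because 0 IDs matched the names table (assembly ARS-UI_Ramb_v3.0). The 19 gene lists (296 symbols) were not analysed here for that reason. The 100 most abundant genes, the group of 232 genes and the fits without 8-week replicates 1 and 4 and pre-MI replicate 2 were chosen after seeing the data.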

Additional observations from a re-analysis of the deposited data

Results flagged for a closer look

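Among 16 checks of 4-week and 8-week libraries by gap over range, 2 libraries passed Dixon's critical value, where chance gives 0.8. In 4-week replicate 1, without regurgitation, 25.2% of counts fell in the 10 most abundant genes; the remaining 4-week libraries had 13.7% to 16.3%. ENSOARG00000014123 had 64.9 CPM in 8-week replicate 4, while the remaining 8-week libraries had 24.6 to 31.3 CPM. Without that library its log2 fold change was 1.38.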

How the results depend on the processing

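The number of genes passing adjustment for 8 weeks against 4 weeks was 0 in edgeR and limma under each setting tried, and 20 in DESeq2. DESeq2 passed 4 genes with and 15 without regurgitation. Why DESeq2 differed (the cause) was not tested. The unadjusted count of 1240 was 766 with 1 surrogate variable and 768 without the 3 libraries that stood apart. It was 503 to 1808 across fits that each left out 1 library. The count of genes without overlap, 294, was 192 with library totals in place of TMM factors and 1588 without the 3 libraries that stood apart. It was 390 to 633 with 1 library left out, where fewer libraries make separation easier. With 1 library left out, 0 to 1 genes passed with regurgitation (1 without 4-week replicate 4) and 0 without it, where a lone library is assumed to vary like the others. Each of the 4 named genes kept its direction under every alternative it was tested in. These alternatives reuse libraries that chose the genes, so the kept direction is a description. The animal number as a replicate block passed 0 genes, with 1592 at an unadjusted p under 0.05, of which 679 were among the 1240. Deviations of same-numbered 4-week and 8-week libraries correlated at 0.0160, 0.172, -0.243 and 0.153, with 2 of 4 pairs over 0.1, which does not meet the limit for treating them as pairs. The interval stayed within 2-fold for 5.08% of genes below 5 CPM and 52.6% of genes at 50 CPM or more. No fit with depth matched between libraries was run.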
